A study of Mus musculus with 15 samples.

Results

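The comparison described here set 6 libraries with low GFI1 against 6 libraries with intact GFI1, out of 15 in the series, to ask which transcripts differ when GFI1 is reduced or missing, whichever allele the mouse carries. Each library is bulk poly(A) RNA from mouse haematopoietic stem cells (HSCs), the rare bone marrow cells that renew themselves and give rise to all blood lineages. The sort took cells from untreated mice that were negative for lineage markers and CD48 and positive for Sca1, c-Kit and CD150. The members were chosen by the genotype in the sample titles, not by any measured value. The low GFI1 group held 3 Gfi1-KO libraries (genotype GFI1 KO/KO, complete loss of murine Gfi1) and 3 GFI1-KD libraries (GFI1 KD/KD, mice with the human GFI1 in place of the murine gene, expressed at a reduced level). The intact group held 3 GFI1-KI libraries (GFI1 KI/KI, titled GFI1-36S, human GFI1 at the murine locus) and 3 Gfi1-WT libraries (Gfi1 WT/WT, murine Gfi1). The human and the murine allele are called the 2 backgrounds below, and each background has its own intact libraries. All of these alleles are germline, so that every cell of the mouse, including those that surround the HSCs in the marrow, carries the genotype. Age, sex and the number of mice per library were not given in the labels, so that the p-values below measure the spread between libraries, which may be partly technical.

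GFI1 is a zinc finger protein that represses transcription. It binds DNA at sites with an AATC core and recruits histone demethylase and deacetylase complexes through its SNAG domain. In HSCs it is known for restraining proliferation, and in progenitors for favouring granulocytes over monocytes.

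The low libraries held 16221642 to 20641056 estimated counts and 11631 to 14393 genes above 0, and the intact libraries 16339007 to 19977537 counts and 12305 to 15125 genes. Of 66 library pairs, 0 held identical values, and the highest Spearman correlation of any pair was 0.903. Libraries differed widely beyond what background and GFI1 state accounted for. In the fit of these 2 terms, the biological coefficient of variation common to all genes tested was 1.32. The standard error of a log2 fold change had a median of 1.01. Of 35533 genes, 12952 passed the filter on low counts and were tested. GFI1-KD replicate 1 and Gfi1-KO replicate 2 had the lowest median Spearman correlations with the other 11 libraries. These were 0.803 and 0.817, against 0.823 to 0.862 for the remaining 10, so that Gfi1-KO replicate 2 lay close to the next libraries. Both are low GFI1 libraries, and they are called the 2 libraries that stood apart below. Gfi1-KO replicate 2 also carried transcripts that the sort should exclude. Cd48, the marker that the gate was negative for, was at 503 CPM (counts scaled to library size with TMM factors) in that library and at most 47.1 CPM in the other 11. Fcgr2b, an Fc receptor of committed cells, was at 216 CPM there and at most 31.3 CPM elsewhere, and Slamf1, which encodes CD150, was at 1.29 CPM there. Ly6g and Cd3e, which define neutrophils and T cells, were at 0 in all 12 libraries. In bulk RNA, fewer cells of a type and less RNA per cell cannot be told apart.

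The targeted gene gave no check of the labels. Murine Gfi1 had 105.5, 54.5 and 0 estimated counts in the libraries labelled Gfi1-KO and 0, 0 and 267 in GFI1-KD. In the intact group it had 0, 126 and 31.2 in GFI1-KI and 4.85, 0 and 0 in Gfi1-WT. Counts were thus sparse in all 4 genotypes, and 2 libraries labelled Gfi1-KO had more than any Gfi1-WT library, which goes against those labels if the KO allele yields no transcript. The low libraries exceeded the intact ones by 2.63 CPM of the library total on average, with p = 0.395 in a two-sided exact permutation test of the labels within each background (400 arrangements, smallest possible p 0.005). The transcript set used for quantification holds no human GFI1, which GFI1-KD and GFI1-KI carry in place of the murine gene. The reduced level in GFI1-KD was thus not measured, and a test that averages both backgrounds cannot check it. The source of the murine Gfi1 counts in GFI1-KD and GFI1-KI was not tested. Gfi1b, the paralogue that many blood cells use in its place, was at 185 ± 58.3 CPM (SD, n = 6) in low and 172 ± 41.1 CPM (SD, n = 6) in intact libraries, with overlapping ranges. The 2 myeloid transcription factor genes Irf8 and Spi1 were sparse, each at 0 in 2 or more libraries of either group: Irf8 reached at most 13.8 CPM in low and 11.3 CPM in intact libraries, and Spi1 at most 15.45 CPM in low and 9.83 CPM in intact libraries.

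Compared to intact HSCs, HSCs with low GFI1 had more Gmfg, which encodes glia maturation factor gamma, a protein of blood cells that takes apart branched actin. Gmfg (ENSMUSG00000060791, chromosome 7 of GRCm38, 28437447 to 28448233, plus strand) was at 596, 917 and 655 CPM in Gfi1-KO and at 1159, 965 and 873 CPM in GFI1-KD. It was at 391, 353 and 318 CPM in GFI1-KI and at 333, 392 and 368 CPM in Gfi1-WT. The lowest low library lay above the highest intact library, and the 6 intact libraries lay close together. The log2 fold change was 1.24 with a standard error of 0.16, a 2.37-fold higher level (adjusted p = 0.0469, edgeR's quasi-likelihood test over 12952 genes). Gmfg was 1 gene of 12952, or 0.00772%, past the adjusted threshold of 0.05. The call was lost in 11 of the 12 fits that left out 1 library and without the 2 libraries that stood apart (adjusted p = 0.508, in a range of 1.75e-09 to 0.508 over the alternatives), while the log2 fold change stayed between 1.06 and 1.33 over all 25 alternatives. Both backgrounds had the same direction, with log2 fold changes of 1.497 for GFI1-KD minus GFI1-KI and 0.99 for Gfi1-KO minus Gfi1-WT, and these shared no library. The promoter sequences of 3 of the leading genes are shown because GFI1 is a DNA-binding repressor: Gmfg as the gene past the threshold, and Nfia and Serpina3g, described below, as those whose promoter held AAATCA, a longer motif around the AATC core of GFI1 sites. They are the 250 bases before to 50 after the start that RefSeq gives on GRCm38.p6, for Gmfg the more upstream of 2 starts (chr7:28437219-28437518), for Nfia chr4:97581693-97581992, upstream of the gene model of GENCODE M21, and for Serpina3g chr12:104235897-104236196, all on the plus strand. Capitals mark AAATCA, and the core alone, which the Gmfg promoter also holds in reverse complement, is not marked.
Gmfg: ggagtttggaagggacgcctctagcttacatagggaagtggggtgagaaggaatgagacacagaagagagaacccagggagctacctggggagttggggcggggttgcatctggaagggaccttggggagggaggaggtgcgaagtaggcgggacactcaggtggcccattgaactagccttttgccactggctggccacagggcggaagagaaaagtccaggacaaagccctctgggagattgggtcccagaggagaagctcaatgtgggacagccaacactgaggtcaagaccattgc
Nfia: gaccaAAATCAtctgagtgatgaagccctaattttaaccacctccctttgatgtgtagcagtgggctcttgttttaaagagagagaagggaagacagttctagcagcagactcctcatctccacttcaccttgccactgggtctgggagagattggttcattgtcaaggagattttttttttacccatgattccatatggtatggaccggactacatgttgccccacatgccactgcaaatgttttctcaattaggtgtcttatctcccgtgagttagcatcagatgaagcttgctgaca
Serpina3g: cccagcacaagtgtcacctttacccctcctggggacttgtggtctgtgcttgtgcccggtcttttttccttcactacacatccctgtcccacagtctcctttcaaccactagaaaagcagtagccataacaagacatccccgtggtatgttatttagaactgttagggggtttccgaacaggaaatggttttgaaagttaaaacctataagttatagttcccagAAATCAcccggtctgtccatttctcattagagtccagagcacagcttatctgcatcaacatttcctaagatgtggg
AAATCA, searched on both strands, was in 2 of 15 promoters of the 12 leading genes with an entry (13.3%), in 9.01% of the 12293 promoters of genes tested and in 14% of all 32851 promoters. The matches were once on the plus strand of Nfia, which was lower in low GFI1, and once on the plus strand of Serpina3g, which was higher. AATC alone, on either strand, was in 10 of the 15 promoters (66.7%) and in 67.4% of those of genes tested. A match describes these letters only.

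At an unadjusted p under 0.01, 43 genes (0.332%) were higher and 47 (0.363%) lower in low GFI1, and at a p under 0.05, 246 (1.9%) were higher and 224 (1.73%) lower. Apart from Gmfg none of them passed the adjusted threshold in edgeR, whereas DESeq2 called 34 genes at an adjusted p under 0.05, Gmfg and 13 others of the 19 leading genes described here among them. The genes below are described as leading values, not as calls. Of the 12952 genes, 6372 (49.2%) had a log2 fold change above 0. A total of 3922 genes were above 0 in all 12 libraries with a mean of at least 50 CPM and are called well measured. Of these 59.6% were above 0, with a median log2 fold change of 0.09 against -0.02 over all genes tested, 163 (4.16%) were higher and 84 (2.14%) lower at a p under 0.05. Of the 47 genes lower at a p under 0.01, 12 were well measured and 9 were at 0 in all 6 low libraries. Of the 43 higher genes, 29 were well measured.

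**Figure D1:**
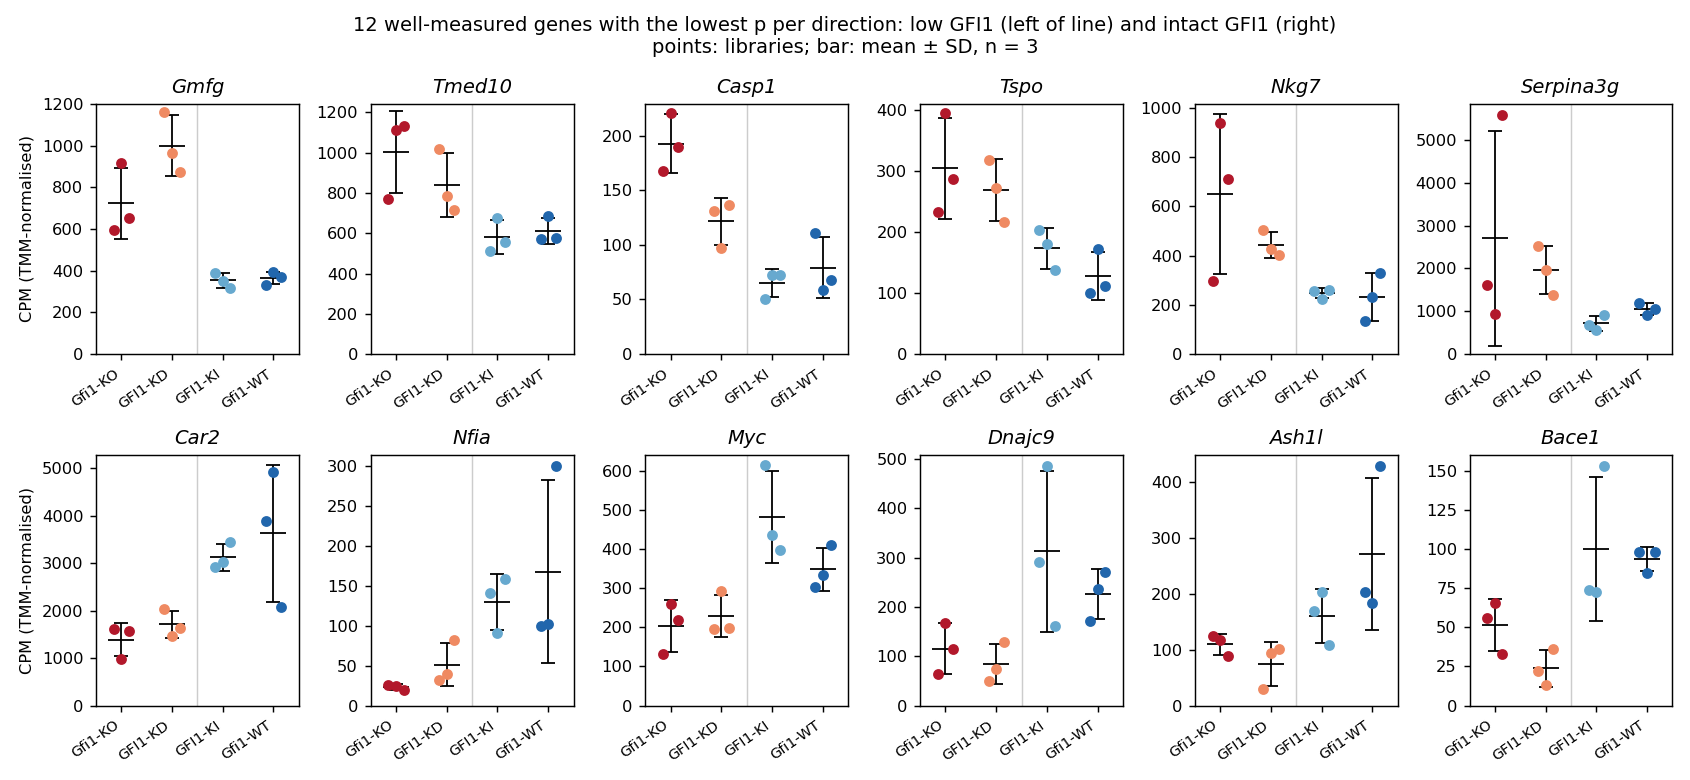
CPM (TMM-normalised, linear axes from 0) of the 6 well-measured genes per direction with the lowest p, one panel each. Points are libraries and bars the mean ± SD of 3 libraries, with Gfi1-KO and GFI1-KD left of the grey line and GFI1-KI and Gfi1-WT right of it. In the top row Gmfg, Tmed10 and Tspo show no overlap across the line, and in the bottom row Car2, Nfia, Myc and Bace1 show none.

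Tmed10, Casp1, Tspo, Nkg7, Serpina3g and Muc13 followed Gmfg among the higher well-measured genes. Tmed10, a cargo receptor between endoplasmic reticulum and Golgi, was at 768, 1112 and 1130 CPM in Gfi1-KO and 1018, 784 and 715 CPM in GFI1-KD, against 513, 675 and 559 CPM in GFI1-KI and 572, 687 and 575 CPM in Gfi1-WT. The groups did not overlap, at a log2 fold change of 0.62 ± 0.14 (SE) and an adjusted p of 1 from edgeR. Casp1, the protease of the inflammasome, was at 167, 221 and 190 CPM in Gfi1-KO and 131, 97.1 and 136 CPM in GFI1-KD, against 50.1, 72.1 and 72.8 CPM in GFI1-KI and 111, 59.0 and 67.8 CPM in Gfi1-WT. Gfi1-WT replicate 1 lay above 1 low library, and the log2 fold change was 1.09 ± 0.25 (SE). Tspo, a cholesterol-binding protein of the outer mitochondrial membrane, was at 215 to 394 CPM in low and 99.2 to 203 CPM in intact libraries, with no overlap and a log2 fold change of 0.94 ± 0.23 (SE).

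Nkg7, a membrane protein of cytotoxic granules, was at 297, 939 and 713 CPM in Gfi1-KO and 503, 427 and 403 CPM in GFI1-KD, against 256, 225 and 261 CPM in GFI1-KI and 136, 231 and 329 CPM in Gfi1-WT. Its log2 fold change was 1.17 ± 0.29 (SE), and 1 low library lay below 1 intact library. Serpina3g, an intracellular protease inhibitor, averaged 2333 ± 1678 CPM (SD, n = 6) in low and 889 ± 234 CPM (SD, n = 6) in intact libraries. Its mean in low GFI1 owed much to Gfi1-KO replicate 3 at 5578 CPM, and Gfi1-KO replicate 2, at 932 CPM, lay within the intact range. Muc13, a cell surface mucin, was at 649 to 868 CPM in low and 239 to 638 CPM in intact libraries, again with no overlap (log2 fold change 0.78 ± 0.21, SE). Tmed10, Casp1, Tspo, Serpina3g and Muc13 all had an adjusted p of 1 in edgeR, as had Nkg7, and 2 low-abundance entries also ranked by p: Gm28188, a processed pseudogene at no more than 3.87 CPM in low and 0.0562 CPM in intact libraries, and Arl10, a GTPase-like gene at 1.73 to 8.97 CPM in low libraries and at 0 in 5 of the 6 intact ones.

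Car2, the carbonic anhydrase of erythroid and osteoclast cells, led the lower values. It was at 1603, 979 and 1574 CPM in Gfi1-KO and 2031, 1468 and 1639 CPM in GFI1-KD, against 2913, 3018 and 3448 CPM in GFI1-KI and 3885, 4931 and 2070 CPM in Gfi1-WT. The highest low library lay just under the lowest intact one, so that the groups did not overlap. The log2 fold change was -1.13 ± 0.21 (SE) with an adjusted p of 0.984 from edgeR. Nfia, a nuclear factor I transcription factor that favours the erythroid over the granulocytic fate, was at 26.3, 24.5 and 19.1 CPM in Gfi1-KO and 32.0, 39.5 and 82.3 CPM in GFI1-KD, against 141, 90.6 and 158 CPM in GFI1-KI and 100.2, 102.2 and 299.7 CPM in Gfi1-WT. It showed no overlap and had the largest change of the 12 plotted genes, a log2 fold change of -2.09 ± 0.46 (SE). Within the murine background it was -2.85 and within the human background -1.34, with an unadjusted p of 0.0775 for the difference between backgrounds.

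Myc, a growth-promoting transcription factor, averaged 216 ± 55.6 CPM (SD, n = 6) in low and 415 ± 110 CPM (SD, n = 6) in intact libraries. Its highest low library, at 292 CPM, lay just below its lowest intact library, at 303 CPM, and its log2 fold change was -0.93 ± 0.21 (SE). Dnajc9, a histone co-chaperone of dividing cells, was at 50.6 to 167 CPM in low and 162 to 486 CPM in intact libraries. Ash1l, a histone methyltransferase, was at 29.1 to 124 CPM in low and 109 to 429 CPM in intact libraries, and Bace1, the beta-secretase, at 12.9 to 65.4 CPM in low and 72.8 to 153 CPM in intact libraries. Bace1 alone of these 3 did not overlap between the groups, and Nfia, Myc, Dnajc9, Ash1l and Bace1 each had an adjusted p of 1 in edgeR.

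A further 4 genes with low p were of low abundance in low GFI1, and 2 of them, Cdkn1c and Fzd4, were above 0 in only 1 of the 6 low libraries. Cdkn1c encodes p57, a cell cycle inhibitor that marks quiescent HSCs. It was at 0 in 5 low libraries and at 0.0508 CPM in GFI1-KD replicate 3, against 2.95, 0.0474 and 9.55 CPM in GFI1-KI and 2.87, 0.0572 and 0 CPM in Gfi1-WT. Fzd4, a Wnt receptor, was likewise at 0 in 5 low libraries, against 41.6, 17.2 and 0 CPM in GFI1-KI and 0.337, 29.9 and 0 CPM in Gfi1-WT. For both genes some intact libraries were at 0 as well, so the groups overlapped. Prrg1, a transmembrane Gla protein, was at 0 to 1.46 CPM in low and 0.273 to 143 CPM in intact libraries. Alkbh6, of the AlkB dioxygenase family, was at 3.40 to 17.7 CPM in low and 19.5 to 49.7 CPM in intact libraries with no overlap. Alkbh6 was above 0 in all 6 low libraries and Prrg1 in 5. Fitted fold changes of sparse genes depend on the prior count and are not given.

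Across all genes tested, all 6 low libraries lay above all 6 intact ones for 21 genes (0.162%) and below them for 22 (0.17%). Within each background taken by itself, 38 genes (0.293%) were higher without overlap in both, 42 (0.324%) were lower in both, and 37 (0.286%) were separated in opposite directions. Separation in both backgrounds was thus more frequent with equal than with opposite signs, a difference that was not tested. The 3 GFI1-36N libraries, which carry a variant of human GFI1 and belong to neither group, lay beyond all 6 intact ones on the side of low GFI1 for 273 genes (2.11%). The 2 background effects had the same sign in 6830 genes (52.7%), and in 56.0% of the well-measured ones. Pearson's correlation of the 2 effects was 0.0048 across all genes tested and 0.10 across the 3922 well-measured genes. Genes are not independent of each other.

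Since the backgrounds share no library, genes picked in one were looked up in the other. Of 154 well-measured genes at an unadjusted p under 0.05 for GFI1-KD minus GFI1-KI, 92 (59.7%) had the same direction for Gfi1-KO minus Gfi1-WT. Of 176 picked for Gfi1-KO minus Gfi1-WT, 118 (67%) had the same direction for GFI1-KD minus GFI1-KI. Among all genes tested the shares were 223 of 423 (52.7%), equal to the share of all genes, and 299 of 496 (60.3%). A total of 10 well-measured genes were in both picks with equal signs: Gmfg, Casp1, Serpina3g, Tmed10 and Smarce1 were higher, and Ash1l, Car2, Myc, Nfia and Ptprcap lower. Smarce1 encodes a subunit of the BAF chromatin remodelling complex and was at 363 to 636 CPM in low and 212 to 399.97 CPM in intact libraries. Ptprcap encodes a partner of the leukocyte phosphatase CD45 and was at 18.9 to 76.6 CPM in low and 42.4 to 170 CPM in intact libraries. Taken within a background, 0 genes passed an adjusted p of 0.05 in edgeR for GFI1-KD minus GFI1-KI (0.0%), where 423 had an unadjusted p under 0.05, and 0 for Gfi1-KO minus Gfi1-WT (0.0%), where 496 did. The difference between the 2 effects also had 0 adjusted calls in edgeR (0.0%), with 414 at an unadjusted p under 0.05 and 183 adjusted calls in DESeq2.

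**Figure D2:**
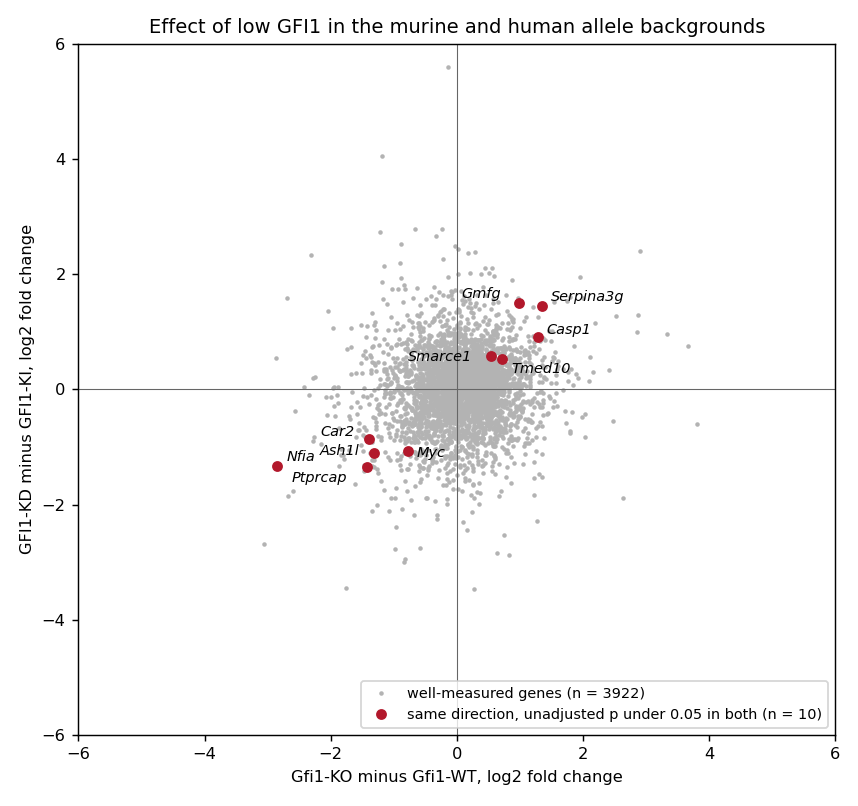
Log2 fold change of Gfi1-KO minus Gfi1-WT (x axis) and of GFI1-KD minus GFI1-KI (y axis) for the 3922 well-measured genes, grey points. The 10 named red points have the same sign and an unadjusted p under 0.05 on both axes, and the grey cloud shows little tilt (Pearson's r = 0.10).

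The gene groups are described by the number of members above or below 0 and their median, beside the same numbers for all well-measured genes (59.6% above 0, median 0.09). Counts and medians are over all tested members unless well-measured ones are named, and of all genes tested 49.2% were above 0 (median -0.02). Genes of the ribosome, respiratory chain and proteasome lay mostly on the higher side. Of 83 tested genes of cytosolic ribosomal proteins, 77 (92.8%) were higher in low GFI1, 20 of them and 0 of the lower ones at an unadjusted p under 0.05. Their median log2 fold change was 0.27, and it was alike in the 2 backgrounds, at 0.27 in the human and 0.26 in the murine one. Of the 80 well-measured members, 70 lay above the median of all well-measured genes. Rps3, of the small subunit, was at 1541, 1899 and 1823 CPM in Gfi1-KO and 1846, 1610 and 1382 CPM in GFI1-KD, against 1545, 1234 and 1129 CPM in GFI1-KI and 1045, 1371 and 1345 CPM in Gfi1-WT. In all, 2 low libraries lay within the intact range, and the log2 fold change was 0.40 ± 0.12 (SE). Rpl32, of the large subunit, averaged 1956 ± 262 CPM (SD, n = 6) in low and 1450 ± 274 CPM (SD, n = 6) in intact libraries.

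Summed over the list, ribosomal protein transcripts made up 56020, 64140 and 62090 CPM in Gfi1-KO and 68860, 59550 and 48780 CPM in GFI1-KD, against 57870, 44410 and 44270 CPM in GFI1-KI and 42410, 56600 and 53950 CPM in Gfi1-WT. GFI1-KD replicate 3 lay below 3 intact libraries, so that the groups overlapped, and GFI1-KD replicate 1, which stood apart, was highest. Without both libraries that stood apart, 71 of 84 members (84.5%) were higher with a median of 0.17, while the median of the well-measured genes was 0.04. Restricting the fit to genes with a mean of at least 50 CPM left 71 of 80 higher with a median of 0.19, and brought the median of the well-measured genes to 0.0039. Ribosomal protein genes have many processed pseudogenes, and the split of reads between them and their parents is uncertain.

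Of 89 tested nuclear genes of oxidative phosphorylation, 67 (75.3%) were higher, with 10 higher and 2 lower at an unadjusted p under 0.05 and a median of 0.23. Over the well-measured members, the median was 0.35 for Gfi1-KO minus Gfi1-WT and 0.13 for GFI1-KD minus GFI1-KI. Those of all well-measured genes were 0.12 and 0.07. Atp5h, a subunit of ATP synthase, was at 324, 319 and 388 CPM in Gfi1-KO and 279, 331 and 255 CPM in GFI1-KD, against 190, 237 and 187 CPM in GFI1-KI and 189, 272 and 247 CPM in Gfi1-WT, with 1 intact library above 1 low library. Sdhd, a subunit of succinate dehydrogenase, averaged 206 ± 48.1 CPM (SD, n = 6) in low and 134 ± 24.7 CPM (SD, n = 6) in intact libraries. Of the 13 mitochondrially encoded genes, 9 were higher and 0 had an unadjusted p under 0.05. Their median was 0.29 in the murine but -0.03 in the human background. Of 43 proteasome genes, 33 (76.7%) were higher, 5 of them at an unadjusted p under 0.05, with a median of 0.18 that was 0.11 without the 2 libraries that stood apart. Taken by background with all libraries, the median was 0.22 for Gfi1-KO minus Gfi1-WT and 0.11 for GFI1-KD minus GFI1-KI. The members with the lowest p, Psma6, Psma4 and Psma7, are alpha subunits of the core particle and had log2 fold changes of 0.61, 0.45 and 0.35. The 69 translation factors were split, 36 higher and 33 lower. Among them Eif4e, the cap-binding protein, averaged 603 ± 122 CPM in low and 484 ± 48.2 CPM in intact libraries, and Eif5a 873 ± 148 CPM in low and 1136 ± 212 CPM in intact libraries (SD, n = 6 each).

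Of 40 genes of actin and migration, 25 were higher, with a median of 0.11. Of the 33 well-measured members 22 were higher, and 17 lay above the median of all well-measured genes. Besides Gmfg, 2 members had an unadjusted p under 0.05. They were Tmsb10, which binds monomeric actin and was at 1394 CPM in Gfi1-KO replicate 2 and 320 to 671 CPM in the other 11 libraries, and Cfl1, the actin-severing cofilin, at 1535 to 2198 CPM in low and 1385 to 1976 CPM in intact libraries. The summed level of the list was 17570 ± 1745 CPM (SD, n = 6) in low and 14720 ± 1162 CPM (SD, n = 6) in intact libraries, with 2 low libraries within the intact range.

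**Figure D3:**
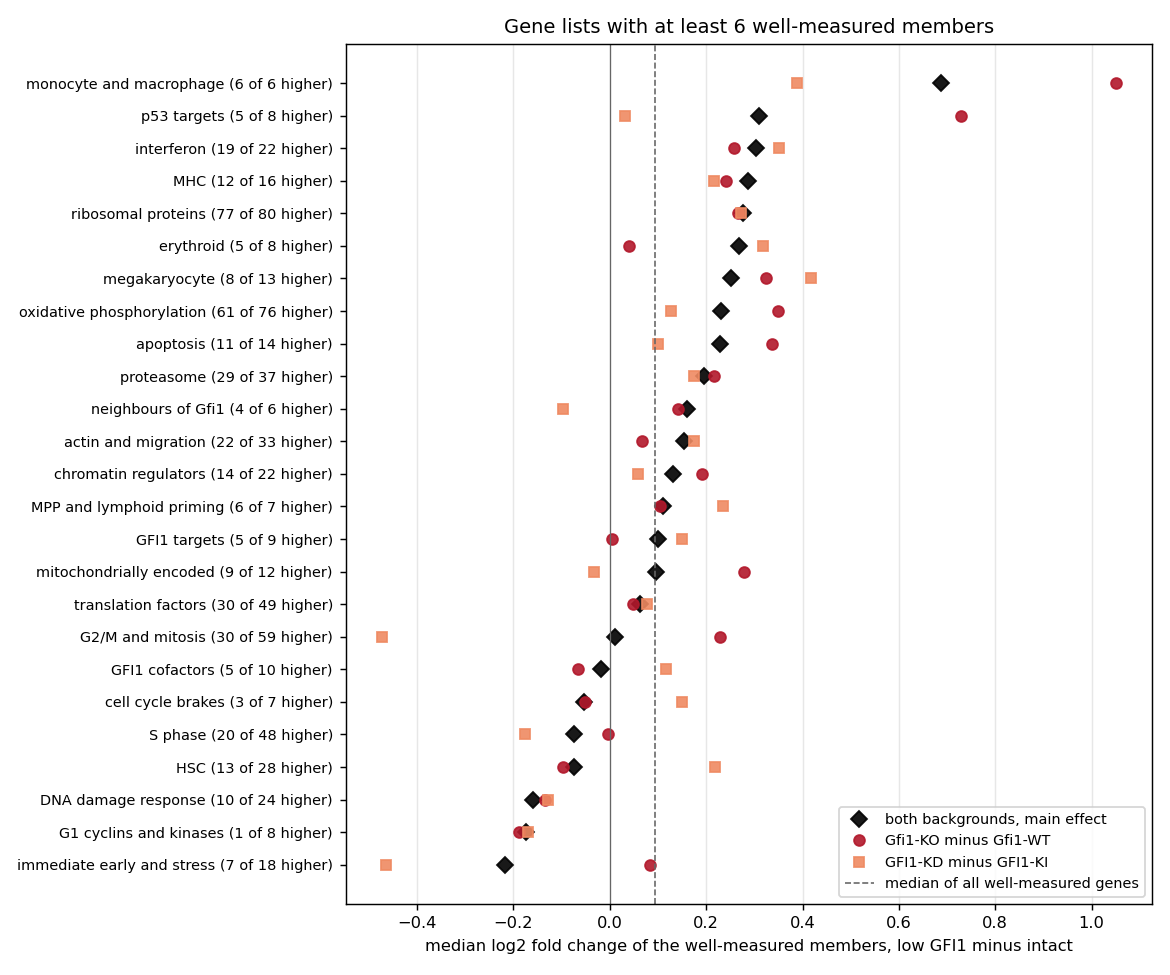
Median log2 fold change (low GFI1 minus intact) of the well-measured members of each gene list with at least 6 of them: black diamonds for both backgrounds, red circles for Gfi1-KO minus Gfi1-WT and orange squares for GFI1-KD minus GFI1-KI. The dashed line is the median of all well-measured genes (0.09). Ribosomal proteins lie at 0.28 with both backgrounds close together, while G2/M genes and the monocyte list spread widely between backgrounds.

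Markers of blood lineages were looked at next, since the label of the cells rests on the sort. Of 50 HSC genes, 48 were tested, of which 19 were higher and 29 lower, and the median was -0.19. Taken by background, the median was 0.19 for GFI1-KD minus GFI1-KI and -0.38 for Gfi1-KO minus Gfi1-WT. Over both backgrounds, the median was -0.000788 and 24 of 49 were higher without the 2 libraries that stood apart. Hlf, a transcription factor of quiescent HSCs, was at 105, 38.7 and 153 CPM in Gfi1-KO and 192, 110 and 154 CPM in GFI1-KD, against 156, 209 and 263 CPM in GFI1-KI and 339, 514 and 117 CPM in Gfi1-WT. Its log2 fold change was -1.09 ± 0.43 (SE), and the groups overlapped. Nkx2-3, a homeobox factor, was at 0.387 to 23.5 CPM in low and 0.16 to 9.66 CPM in intact libraries.

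Of 31 monocyte and macrophage genes, 20 were tested, of which 13 were higher with a median of 0.69, and 5 were at 0 in all 12 libraries. Taken by background, the median was 0.097 for GFI1-KD minus GFI1-KI and 1.29 for Gfi1-KO minus Gfi1-WT. Ms4a6c was at 38.1 to 263 CPM in low and 6.58 to 57.9 CPM in intact libraries. Cst3, a secreted protease inhibitor of phagocytes, was at 320 to 374 CPM in low and 181 to 325 CPM in intact libraries. The summed level of the list was 983 to 2910 CPM in low and 895 to 1236 CPM in intact libraries, highest in Gfi1-KO replicates 2 and 3 at 2910 and 2596 CPM. Without the 2 libraries that stood apart, 14 of 21 genes were higher with a median of 0.62. Without Gfi1-WT replicate 3, 12 of 23 were higher with a median of 0.256. Of 25 multipotent progenitor and lymphoid genes in the table, 18 were tested and 13 were higher, with a median of 0.47. Taken by background, it was -0.18 for GFI1-KD minus GFI1-KI and 0.97 for Gfi1-KO minus Gfi1-WT. Without Gfi1-KO replicate 2, 10 of 21 were higher with a median of -0.02. Their summed level was 5755 CPM in Gfi1-KO replicate 2 and 1839 to 3076 CPM in the other 11 libraries. Cd27 led this list, at 176 to 383 CPM in low and 101 to 242 CPM in intact libraries. The part of progenitors in these values was not tested.

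Erythroid genes diverged. Summed, the 31 genes in the table were at 2630, 3168 and 2668 CPM in Gfi1-KO and 3324, 2577 and 2550 CPM in GFI1-KD, against 3976, 4764 and 4350 CPM in GFI1-KI and 4813, 5758 and 3139 CPM in Gfi1-WT. Most of that sum was Car2. Leaving out Car2, a step chosen after its values were seen, the sum was 1270 ± 467 CPM (SD, n = 6) in low and 1089 ± 335 CPM (SD, n = 6) in intact libraries. Gfi1-KO replicate 2 was highest at 2188 CPM. The other low libraries, at 911 to 1293 CPM, lay within the intact range of 828 to 1745 CPM. Tfrc, the transferrin receptor, was at 103, 343 and 105 CPM in Gfi1-KO and 210, 46.96 and 45.9 CPM in GFI1-KD, against 80.6, 42.7 and 28.2 CPM in GFI1-KI and 28.9, 16.4 and 30.3 CPM in Gfi1-WT. Fech, the last enzyme of haem synthesis, averaged 23.6 ± 28.6 CPM (SD, n = 6) in low and 71.5 ± 61.6 CPM (SD, n = 6) in intact libraries. Of 29 tested megakaryocyte genes, 17 were higher, with a median of 0.25. Without Gfi1-KO replicate 2, 23 of 30 were higher with a median of 0.53. The median fell to -0.0097 without Gfi1-KO replicate 3 and to -0.19 with limma. Their summed level was 6142, 1677 and 13360 CPM in Gfi1-KO and 8060, 8725 and 5381 CPM in GFI1-KD, against 5488 to 7443 CPM in intact libraries. Selp was at 47.02 to 309 CPM in low and 38.9 to 142 CPM in intact libraries, Itga2b at 27.2 to 351 CPM in low and 58.8 to 155 CPM in intact libraries, and Thbs1 at 0 to 3.87 CPM in low and 0 to 57.9 CPM in intact libraries.

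Of the remaining lineage lists, 18 of 30 granulocyte genes were tested with 11 higher and 0 at an unadjusted p under 0.05. Their summed level was 640 to 5540 CPM in low and 790 to 2366 CPM in intact libraries, and was highest in Gfi1-KO replicate 2. Without that library 4 of 20 granulocyte genes were higher and the median log2 fold change was -1.36, against 0.35 with it. Taken by background with all libraries, the median was -0.77 for GFI1-KD minus GFI1-KI and 1.08 for Gfi1-KO minus Gfi1-WT. The mast cell and basophil list (10 tested, 5 higher), the B cell list (6 tested, 4 higher) and the stroma and endothelium list (8 tested, 4 higher) had 0 genes at that threshold, and the T and NK cell list had 1 of 9, Nkg7. Summed, however, the B cell list was at 8298 CPM in Gfi1-KO replicate 2 and 960.6 to 2261 CPM in the other 11 libraries, and the mast cell and basophil list at 4413 CPM there and 345.5 to 1783 CPM in the others. Without that library 3 of 8 B cell genes and 4 of 11 mast cell and basophil genes were higher. The part of these cell types in the results was not tested. The B cell list held 7 genes, and the T and NK cell list 10 genes, at 0 in all 12 libraries.

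**Figure D4:**
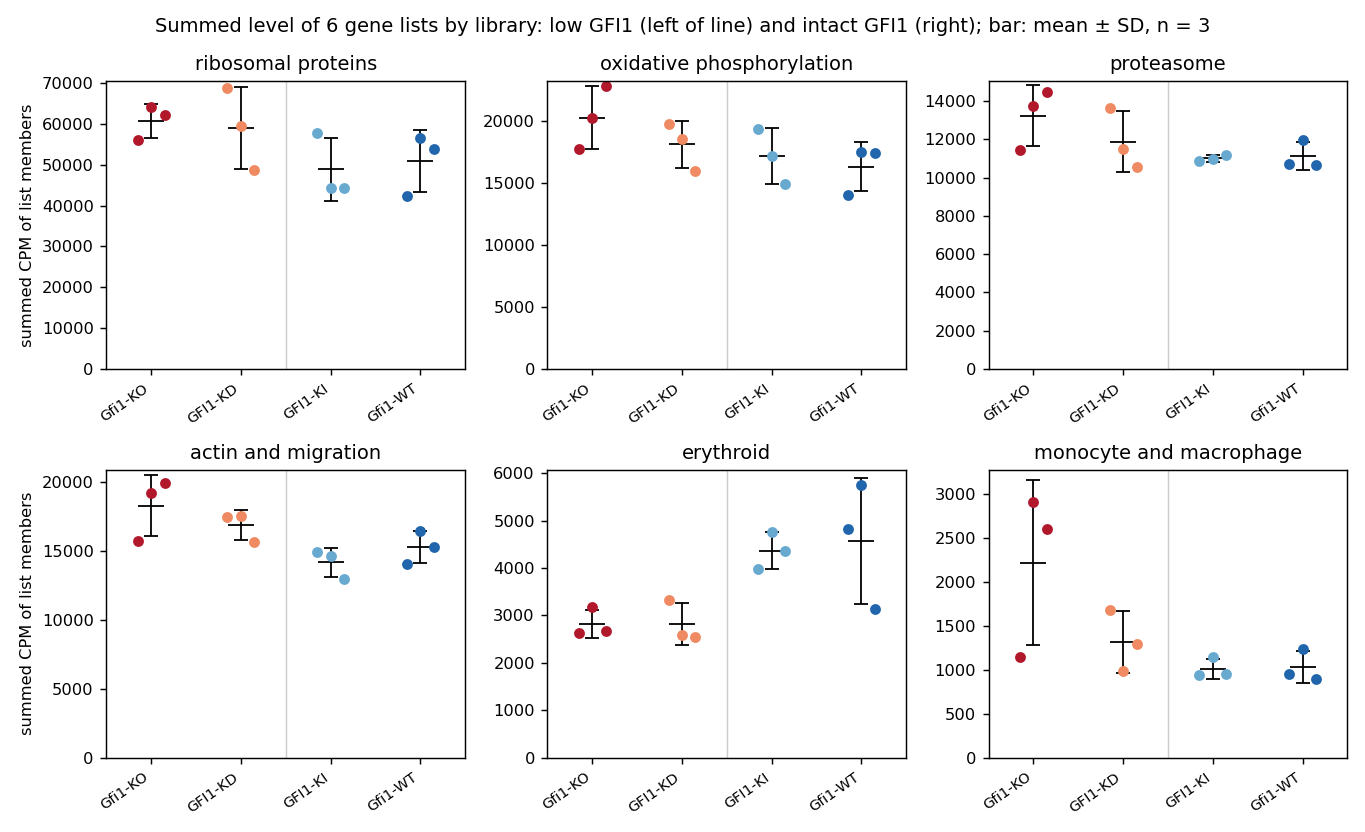
Summed CPM (linear axes from 0) of the members of 6 gene lists. Points are libraries and bars the mean ± SD of 3 libraries, with Gfi1-KO and GFI1-KD left of the grey line and GFI1-KI and Gfi1-WT right of it. The erythroid sum, mostly Car2, is lower in low GFI1 with 2 low libraries above the lowest intact one, and the monocyte sum is highest in 2 Gfi1-KO libraries.

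Counted against 0, genes of the cell cycle gave no common direction. Among 65 genes of S phase, 28 lay above 0 and 37 below it, and of 80 genes of G2/M and mitosis 38 were higher and 42 lower. Against the median of all well-measured genes most lay lower: 12 of 48 well-measured S phase members and 20 of 59 G2/M members lay above it. In the fit of genes with a mean of at least 50 CPM, 13 of 48 and 21 of 67 were higher. The G2/M median was -0.51 for GFI1-KD minus GFI1-KI and 0.29 for Gfi1-KO minus Gfi1-WT, and 28 of the 80 genes had the same sign in both. Cdca8, a subunit of the chromosomal passenger complex, was at 138, 205 and 206 CPM in Gfi1-KO and 150.2, 126 and 115 CPM in GFI1-KD, against 206, 330.1 and 266 CPM in GFI1-KI and 208, 194 and 290.1 CPM in Gfi1-WT. Spc24, of the kinetochore, averaged 358 ± 43.6 CPM (SD, n = 6) in low and 477 ± 88.2 CPM (SD, n = 6) in intact libraries. Cdk6, the kinase that drives HSCs into the cell cycle, was at 1299, 1682 and 1760 CPM in Gfi1-KO and 908, 1626 and 1465 CPM in GFI1-KD, against 929, 812 and 956 CPM in GFI1-KI and 675, 721 and 1461 CPM in Gfi1-WT. Its log2 fold change was 0.65 ± 0.21 (SE), and the groups overlapped. Ccnd2, a D-type cyclin, differed by background, with log2 fold changes of -1.47 for Gfi1-KO minus Gfi1-WT and 0.02 for GFI1-KD minus GFI1-KI. Of 20 tested cell cycle brakes 7 were higher, and Cdkn1c had the lowest p.

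Of 54 genes of the DNA damage response, 23 were higher and 31 lower, and the median was -0.16. Blm and Brip1, both helicases of replication fork repair, had an unadjusted p under 0.05. Blm was at 8.10 to 81.5 CPM in low and 43.0 to 127 CPM in intact libraries, and Brip1 at 3.99 to 95.8 CPM in low and 33.4 to 244 CPM in intact libraries. Of 27 p53 targets 11 were higher and 16 lower. Cdkn1a, the p21 inhibitor, was at 206 and 224 CPM in Gfi1-KO replicates 2 and 3 and at 10.1 to 65.1 CPM in the other 10 libraries. Of 30 apoptosis genes tested, 19 (63.3%) were higher, against 49.2% of all genes tested. Without Gfi1-KO replicate 3 it was 16 of 32 with a median of 0.0096, against 0.16 with it. Of the 14 well-measured members 11 were higher with a median of 0.23, against 59.6% and 0.09 for all well-measured genes. Bid and Cflar had the lowest p. Bid, which links death receptors to mitochondria, was at 72.5 to 201 CPM in low and 32.2 to 112 CPM in intact libraries, and Cflar, an inhibitor of caspase activation at death receptors, at 92.3 to 192 CPM in low and 18.1 to 118 CPM in intact libraries.

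Of the interferon and antigen presentation genes tested, 27 of 43 (62.8%) and 15 of 24 (62.5%) were higher, against 49.2% of all genes tested. Their medians were 0.13 and 0.19. Of the well-measured members 19 of 22 and 12 of 16 were higher, with medians of 0.30 and 0.29, against 59.6% and 0.09 for all well-measured genes. Over all tested members, the medians were 0.068 and -0.0016 without Gfi1-KO replicate 3, with 26 of 44 and 12 of 24 higher. Ifi35 was at 90.9 to 236 CPM in low and 52.7 to 138 CPM in intact libraries, and H2-DMa, which loads peptides on class II molecules, at 179 to 496 CPM in low and 127 to 235 CPM in intact libraries. The summed interferon level was highest in Gfi1-KO replicate 3, at 10040 CPM, against a median of 4744 CPM over the low and 4272 CPM over the intact libraries. Immediate early and stress genes lay more often below 0, with 23 of 36 lower, a median of -0.25 and 3 lower members at an unadjusted p under 0.05, namely Dnajb1, Ppp1r15a and Myc. Dnajb1, a heat shock co-chaperone, was at 42.1, 99.6 and 39.6 CPM in Gfi1-KO and 32.5, 80.5 and 100 CPM in GFI1-KD, against 181, 250.2 and 121 CPM in GFI1-KI and 115, 77.0 and 243 CPM in Gfi1-WT. Ppp1r15a, which restores translation after stress, was at 123 to 334 CPM in low and 176 to 713 CPM in intact libraries. The median was -0.46 for GFI1-KD minus GFI1-KI and -0.16 for Gfi1-KO minus Gfi1-WT, and 0.08 for Gfi1-KO minus Gfi1-WT over the 18 well-measured members. The summed level of the list was 14550 ± 4499 CPM (SD, n = 6) in low and 14390 ± 1330 CPM (SD, n = 6) in intact libraries, and was highest in Gfi1-KO replicates 3 and 2, at 21560 and 18540 CPM.

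Lists built around GFI1 itself showed no shift. Of 28 tested targets of GFI1, taken from textbook knowledge, 14 were higher and 14 lower, and the median was 0.04. Myc alone of them had an unadjusted p under 0.05. Hoxa9 was at 1.14 to 35.7 CPM in low and 14.5 to 81.3 CPM in intact libraries, and Csf1 at 0 to 20.3 CPM in low and 0 to 8.15 CPM in intact libraries. Of 22 cofactor genes 11 were higher and 11 lower. Runx1t1, a corepressor of the ETO family, was at 0 to 1.61 CPM in low and 0 to 96.1 CPM in intact libraries. Of 38 chromatin regulators 23 were higher, and Kdm6a, a histone demethylase, averaged 36.6 ± 19.3 CPM (SD, n = 6) in low and 78.6 ± 33.3 CPM (SD, n = 6) in intact libraries. Of 20 tested genes that flank Gfi1 on the chromosome, 11 were higher and 9 lower, with 0 at an unadjusted p under 0.05. Y-linked genes differed between libraries of one genotype: Eif2s3y was at 79.7 and 158 CPM in GFI1-KD replicates 1 and 3 and at most 0.601 CPM in the other 10 libraries. With their level as a covariate the Gmfg log2 fold change was 1.20 (adjusted p = 0.267 from edgeR, in a range of 1.75e-09 to 0.508 over the alternatives).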

How the data were processed

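The authors sorted HSCs, extracted RNA with a micro kit, made poly(A) libraries, sequenced single ends and quantified them with Salmon against mouse transcripts of GRCm38, with corrections for GC content, sequence and position. They deposited length-scaled TPM per gene symbol, which are estimated counts (expected counts) that sum to the library's depth. The submitters' processing notes name sleuth 0.30.0 and R 4.2.1. Columns were matched to samples through the number in the title. A row without a gene name, 0.0068% to 0.0719% of each library, was left out.

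Values were rounded to whole counts and fitted with edgeR 4.0.16 (R 4.3.3) as background plus low GFI1, using TMM factors (0.865 to 1.077), a filter on low counts by genotype (minimum count 10, minimum total 15) and Benjamini-Hochberg adjustment over 12952 genes. The test of the study needs resampling estimates that the gene table lacks. Effects per background came from a fit of 4 genotype means. CPM are TMM-scaled. Scripts were tested on simulated data.

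Replicate numbers in the titles did not pair libraries: of 18 same-numbered pairs, 0 had deviations correlated above 0.1. Named were Gfi1, Gfi1b, Irf8, Spi1 and the gate genes (1 of which is not reported here), the 6 genes per direction with the lowest p among all and among well-measured genes, up to 5 per direction without overlap, genes past the adjusted threshold, and up to 3 per list with the lowest p. Smarce1 and Ptprcap were added after their values were seen. The members and the 32 lists were chosen with earlier results of these data known. Coordinates come from GENCODE M21 and promoters from RefSeq (GRCm38.p6). Depth limited genes of few counts, where 3 counts per library were taken as the floor. The GFI1-36N libraries entered only 1 alternative, the count of genes where they lay beyond all intact libraries, and the values at the end. Alternatives changed normalization, filter, model, test (DESeq2 1.42.0, limma 3.58.1) and libraries.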

Additional observations from a re-analysis of the deposited data

Results flagged for a closer look

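Among 46 groups of 6 libraries searched, 14 values lay far from the other 5 by Dixon's criterion, which flags about 1 group in 20 by chance. That share does not apply where the other values are all 0, since any value above 0 is then flagged. This held for Arl10, Gm28188, Fzd4 and, among low libraries, Cdkn1c, and all of these but Arl10 lay under the floor of 3 counts. For genes that were higher in low GFI1 these were Serpina3g in Gfi1-KO replicate 3 (5578 CPM, others 932 to 2524), Casp1 in Gfi1-WT replicate 1 (111 CPM, others 50.1 to 72.8), Arl10 in GFI1-KI replicate 2 (0.521 CPM, others 0), Gm28188 in Gfi1-WT replicate 1 (0.0562 CPM, others 0), and Gfi1 in GFI1-KI replicate 2 (5.97 CPM, others 0 to 1.65). For genes that were lower, the low libraries set apart were Nfia in GFI1-KD replicate 3 (82.3 CPM, others 19.1 to 39.5), Alkbh6 in the same library (17.7 CPM, others 3.40 to 7.07), Prrg1 in GFI1-KD replicate 1 (1.46 CPM, others 0 to 0.417), and Fzd4 and Cdkn1c in GFI1-KD replicate 3 (each 0.0508 CPM, others 0). The intact libraries set apart were Nfia and Ash1l in Gfi1-WT replicate 3 (299.7 CPM, others 90.6 to 158, and 429 CPM, others 109 to 204), and Bace1 and Cdkn1c in GFI1-KI replicate 3 (153 CPM, others 72.8 to 98.5, and 9.55 CPM, others 0 to 2.95).

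The 3 GFI1-36N libraries, which carry a variant of human GFI1 and belong to neither group, lay beyond all 6 intact libraries on the side of low GFI1 for 3 of 19 leading genes, in CPM of the library total, against 2.11% of all genes tested. The leading genes were picked with the same intact libraries. Gmfg averaged 470.5 CPM in GFI1-36N with a lowest library of 400.9, just above the intact libraries at 330 to 398, and Serpina3g averaged 1645, against 603 to 1237. Prrg1 averaged 0.185, against 0.278 to 148, values that reach down to a few counts per library.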

How the results depend on the processing

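The 1 gene past an adjusted p of 0.05, Gmfg, became 0 genes with the replicate block, with RLE normalization, with the sleuth filter, with the Y-linked level as covariate and without the 2 libraries that stood apart. It became 34 genes with DESeq2, and 0 to 1 when each library was left out in turn, staying at 1 only without Gfi1-KO replicate 1. The 90 genes at an unadjusted p under 0.01 became 283 with DESeq2, 53 with the sleuth filter, 32 among genes with a mean of at least 50 CPM (an alternative added after seeing the data), 66 with the replicate block and 62 to 95 when leaving out each library. The difference between backgrounds had 0 adjusted calls in edgeR, also in each fit that left out a library, and 183 with DESeq2. No named gene changed direction while past the threshold, but no fit other than DESeq2 had more than 1 gene past it. Short of the threshold, signs did change: Irf8 kept its sign in 15 of 24 alternatives. The medians of the ribosomal, oxidative phosphorylation, proteasome and monocyte lists kept their sign under all 25 alternatives (0.17 to 0.33, 0.15 to 0.31, 0.11 to 0.24 and 0.256 to 1.33, over the members tested in each fit), while that of the B cell list changed sign under 7 of 25 and that of the stroma list under 10 of 24. Without Gfi1-KO replicate 2 the medians of the HSC, granulocyte, mast cell, progenitor, p53, mitochondrially encoded and chromatin lists changed sign as well. The monocyte median, which kept its sign, was 0.097 for GFI1-KD minus GFI1-KI and 1.29 for Gfi1-KO minus Gfi1-WT. The cause of these differences was not tested. With a standard error near 1 for the median gene, moderate differences of most genes were not detectable here.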

Other observations

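The genes in the next sentences were chosen after their values were seen. Without overlap between the groups were also Slc38a2, a neutral amino acid transporter, at 127 to 250.1 CPM in low and 36.3 to 115 CPM in intact libraries, and Yars, the tyrosyl-tRNA synthetase, at 78.0 to 117 CPM in low and 121 to 287 CPM in intact libraries. Igf2r, the imprinted receptor that clears insulin-like growth factor, was at 0 to 0.715 CPM in low libraries, against 332, 7.49 and 15.95 CPM in GFI1-KI and 17.1, 12.6 and 0.0601 CPM in Gfi1-WT. Smad6, an inhibitor of BMP signalling, was at 0 to 0.203 CPM in low and 0.164 to 8.82 CPM in intact libraries, and the groups of both genes overlapped slightly. Each had an adjusted p of 1 in edgeR. Of the 34 genes that DESeq2 called, 13 were higher and 21 lower in low GFI1, and 17 were above 0 in all 12 libraries.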
